A study of Mus musculus with 12 samples.

Results

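Tnrc18, Bahcc1 and Bahd1 are 3 mouse genes of the BAH family, taken from the 37310 gene rows that each library of the series holds. They were found by symbol through the Gencode vM1 gene identifiers, and Tnrc18 and Bahcc1 were chosen by their counts in TRAP against input in these same libraries, as genes among those with the highest ratio. The ratio is therefore given below as a description, without a test, for all 3 genes. For these genes, only the comparisons of the genotypes were tested. For other genes named below, TRAP against input was tested too.

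TRAP, translating ribosome affinity purification, collects mRNA bound to ribosomes of a chosen kind of cell. All mice, on a C57BL/6 background, carried a Cre-dependent fusion of GFP with the ribosomal protein L10a (Rosa26 eGFP/L10a) and received retrograde HSV-Cre, under the hEf1α promoter, in nucleus accumbens (NAc). Tissue of ventral hippocampus (vHPC) was punched 3 weeks later, so the tagged ribosomes come from vHPC cells whose axons reach NAc. The vector acts in every cell that projects to NAc and not in 1 circuit alone. WT mice were wildtype at FosB, and KO mice were FosB fl/fl, in which the same Cre removes FosB, the gene of the transcription factors FosB and ΔFosB. Each genotype gave 3 pools, of 3 mice each by the labels and of 3 to 4 by the methods, and from each pool both a TRAP library and 1 of the whole punch (input) were made, 12 libraries in all. WT pools are numbered 1 to 3 and KO pools 2 to 4, and an equal number in both genotypes stands for different mice. The age of these mice is not given in the sources used here.

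Between 3416030 and 5614089 reads per library fell on genes, so that 3 counts correspond to 0.534 to 0.878 CPM, where CPM is a gene's count scaled to the size of its library. The limit covers counting error alone, because PCR copies of a molecule are counted as separate reads. The TRAP level of Fosb was 32.0 to 45.3 CPM in WT and 18.8 to 29.4 CPM in KO, its input level was 22.3 to 30.3 CPM and 14.9 to 17.1 CPM, and WT and KO did not overlap in either fraction. These counts cover the whole gene and not only the part that Cre removes, so the check of the labels is limited. The TRAP libraries held less RNA of glia than the input libraries. The 8 astrocyte markers summed to 265 to 366 CPM in TRAP and 1629 to 2052 CPM in input, the 8 oligodendrocyte markers to 157 to 201 CPM and 676 to 1082 CPM, and the 8 microglia markers to 4.24 to 13.9 CPM and 73.04 to 135 CPM. The 9 GABA neuron markers summed to 168 to 623 CPM in TRAP and 762 to 915 CPM in input, the 6 endothelium markers to 1.604 to 8.67 CPM and 6.41 to 22.3 CPM, and the 8 glutamate neuron markers to 5242 to 5779 CPM and 4266 to 4896 CPM. Of all these markers, Tek alone was at 0 in every TRAP library. The share of counts on the mitochondrial genome was 0.0305% to 0.130% in TRAP and 5.29% to 9.05% in input.

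The BAH (bromo-adjacent homology) domain is a fold that many chromatin proteins use to bind histone tails or other proteins. The BAH domains of BAHCC1 and BAHD1 are known to read histone H3 trimethylated at lysine 27, the mark set by the Polycomb complex PRC2, and that of TNRC18 to read histone H3 trimethylated at lysine 9, the mark of constitutive heterochromatin. All 3 proteins are known as silencers that bring in corepressors, among them histone deacetylases. Tnrc18 and Bahcc1 are paralogs that are alike along most of their length, while Bahd1 is a shorter protein that shares mainly the BAH domain.

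On mm9, Tnrc18 (ENSMUSG00000039477.9) lies on chromosome 5 from 143512088 to 143579341 on the minus strand, Bahcc1 (ENSMUSG00000039741.9) on chromosome 11 from 120094261 to 120153610 on the plus strand, and Bahd1 (ENSMUSG00000040007.7) on chromosome 2 from 118726113 to 118750264 on the plus strand. Their merged exons measure 6912, 11118 and 4664 bases, in 18, 29 and 8 blocks. Exons of all 3 are rich in G and C, at 62.3%, 60.4% and 59.6%, which exceeds 98.5%, 96.5% and 94.6% of the 12460 protein-coding genes tested. The exon lengths exceed those of 82.4%, 96.2% and 61.4% of these genes.

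Because paralogs can share reads, the coding sequences of the Gencode vM1 models were compared. The Tnrc18 model with the most coding bases, Tnrc18-202, has 1849 codons and no stop codon, and its translation aligned with residues 1 to 1894 of the 2643 residues of Bahcc1-001, with 553 of 1604 aligned residues identical (34.5%). The closest window of 90 bases without a gap in the alignment of these models is shown here, with the bases that differ in capitals. It shows how alike the annotated coding sequences are at the level of reads.
Tnrc18, coding bases 2191 to 2280: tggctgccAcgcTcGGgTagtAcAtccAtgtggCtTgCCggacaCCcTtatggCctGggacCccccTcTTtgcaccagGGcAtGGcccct
Bahcc1, coding bases 2464 to 2553: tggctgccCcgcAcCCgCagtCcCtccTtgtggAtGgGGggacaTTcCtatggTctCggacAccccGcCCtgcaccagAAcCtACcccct

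Even there only 64 of 90 bases were identical (71.1%). The longest run of identical bases in any pair of their transcripts was 22, cccacctttgtgccttctgtgg, against 13 between Bahcc1 and Bahd1 and 12 between Tnrc18 and Bahd1. In stretches of 75 bases that overlap along each exon, and so are not separate sequences, 8 of 232 stretches of Tnrc18 exons (3.45%), 37 of 376 of Bahcc1 (9.84%) and 0 of 167 of Bahd1 had another place in mm9 with at most 2 mismatches. Reads with several places in the genome were set aside by the counting, so the counts of Bahcc1 may be lowered in such stretches.

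The BAH domain itself is counted for only some of these genes. Residues 2388 to 2604 of Bahcc1-001 aligned with residues 491 to 708 of the 772 of Bahd1-001, with 63 of 202 aligned residues identical (31.2%). No Tnrc18 model of Gencode vM1 reaches this region. A search of the translated Bahcc1 segment against chromosomes 2, 5 and 11 of mm9 found a copy on chromosome 5 at chr5:143203785-143204033 (80.7% of 83 residues identical) and chr5:143202054-143202143 (76.7% of 30), both on the minus strand, the strand of Tnrc18. The copy lies 308054 bases from the Tnrc18 model, with 3 assembly gaps of 200000 unknown bases in all between them, and in no annotated exon. Part of it is shown with the matching part of Bahcc1, the bases that differ in capitals, because any read from it was counted for no gene.
Chromosome 5 copy, chr5:143203872-143203961, minus strand: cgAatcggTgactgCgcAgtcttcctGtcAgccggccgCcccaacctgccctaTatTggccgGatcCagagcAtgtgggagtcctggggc
Bahcc1, coding bases 7558 to 7647: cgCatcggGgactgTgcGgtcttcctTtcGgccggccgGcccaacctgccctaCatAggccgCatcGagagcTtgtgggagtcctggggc

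Here 78 of 90 bases were identical (86.7%). Whether this copy is transcribed as part of Tnrc18 was not tested. The Tnrc18 values below rest on the annotated exons alone.

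By contrast, the closest window of the same length between Bahcc1 and Bahd1, within the region of their BAH domains, had 42 of 90 bases identical (46.7%). It shows how far apart these genes are at the level of reads.
Bahcc1, coding bases 7723 to 7812: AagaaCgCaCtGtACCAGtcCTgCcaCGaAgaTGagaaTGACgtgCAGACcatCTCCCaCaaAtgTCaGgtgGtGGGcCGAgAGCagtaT
Bahd1, coding bases 2035 to 2124: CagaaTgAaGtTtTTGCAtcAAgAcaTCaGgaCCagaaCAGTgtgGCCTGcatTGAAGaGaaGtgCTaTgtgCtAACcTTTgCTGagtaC

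Over both genotypes, Tnrc18 was 8.23-fold, Bahcc1 8.22-fold and Bahd1 1.75-fold higher in TRAP than in input. In WT pools 1, 2 and 3, Tnrc18 had 1111, 1774 and 752 CPM in TRAP and 128, 123 and 134 CPM in input. In KO pools 2, 3 and 4 it stood at 936, 830.4 and 1298 CPM in TRAP and at 129.9, 169 and 128 CPM in input. Every TRAP library was thus above every input library, and the TRAP libraries spread more widely than the inputs, with WT TRAP 2 the highest and WT TRAP 3 the lowest. In WT pools 1, 2 and 3, Bahcc1 had 429.5, 449 and 232 CPM in TRAP and 45.4, 46.4 and 39.1 CPM in input. In KO pools 2, 3 and 4 it stood at 378, 326 and 485 CPM in TRAP and at 52.3, 49.2 and 48.1 CPM in input. The order of the extremes in TRAP is partly that of Tnrc18, with WT TRAP 3 again the lowest and KO TRAP 4 here the highest. In WT pools 1, 2 and 3, Bahd1 had 97.3, 74.7 and 76.2 CPM in TRAP and 37.0, 48.9 and 47.3 CPM in input. In KO pools 2, 3 and 4 it stood at 73.5, 83.3 and 77.6 CPM in TRAP and at 48.0, 42.5 and 52.2 CPM in input. Its TRAP and input libraries did not overlap either, with 73.5 CPM as the lowest TRAP value and 52.2 CPM as the highest input value. In both genotypes 3 of 3 genes had TRAP and input groups that did not overlap, as did 40.1% of all genes tested in WT and 42.5% in KO. For Tnrc18 and Bahcc1 this separation follows from how they were chosen.

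**Figure D1:**
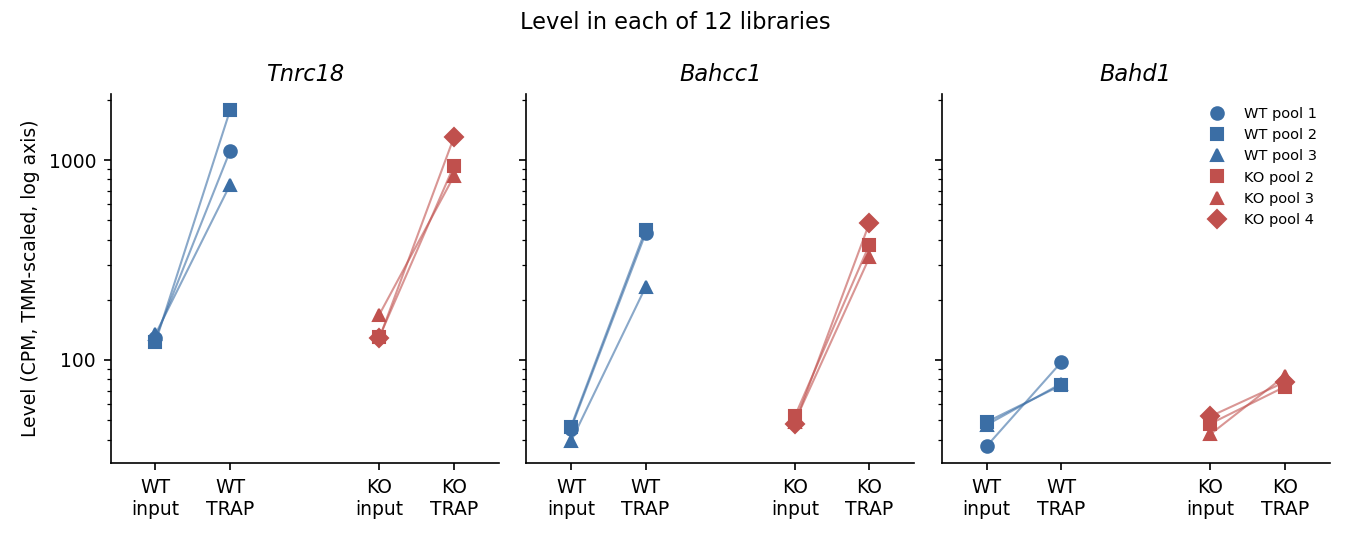
Level of each gene in each of 12 libraries (y axis, TMM-scaled CPM on a log axis) for input and TRAP of WT (blue) and KO (red), with a line joining the libraries of a pool and a symbol for the pool number. All 6 lines rise for each gene, steeply for Tnrc18 and Bahcc1, with TRAP values of 752 to 1774 CPM and 232 to 485 CPM, and less for Bahd1, with 73.5 to 97.3 CPM.

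As means over 3 pools with the SD, the TRAP level of Tnrc18 was 1212 ± 519 CPM in WT and 1022 ± 245 CPM in KO, and its input level was 128 ± 5.86 and 142 ± 22.8 CPM. For Bahcc1 the TRAP level was 370.0 ± 120.2 CPM in WT and 396 ± 80.8 CPM in KO, and the input level 43.6 ± 3.95 and 49.8 ± 2.16 CPM. For Bahd1 the TRAP level was 82.7 ± 12.7 CPM in WT and 78.2 ± 4.92 CPM in KO, and the input level 44.4 ± 6.48 and 47.6 ± 4.87 CPM. The number of reads behind these values ran from 441 to 7530 for Tnrc18, from 156 to 2410 for Bahcc1 and from 127 to 546 for Bahd1. In tissue samples like these inputs, fewer cells of a type and less RNA per cell cannot be told apart.

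Within pools, TRAP over input for Tnrc18 was 8.62-, 14.4- and 5.58-fold in WT pools 1, 2 and 3, and 7.18-, 4.92- and 10.1-fold in KO pools 2, 3 and 4. For Bahcc1 the same folds were 9.37, 9.58 and 5.86 in WT and 7.18, 6.58 and 9.99 in KO. For Bahd1 they were 2.61, 1.52 and 1.604 in WT and 1.53, 1.95 and 1.48 in KO. The lowest fold of Tnrc18 or Bahcc1 in any pool was therefore above the highest fold of Bahd1. The mean log2 ratio over the 6 pools was 2.99 ± 0.57 (SD) for Tnrc18, 2.99 ± 0.32 for Bahcc1 and 0.80 ± 0.32 for Bahd1.

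In the fit of all 12 libraries with edgeR, which weighs the counts and takes the mean of both genotypes, this log2 ratio came to 3.04 (standard error 0.23) for Tnrc18, 3.04 (standard error 0.17) for Bahcc1 and 0.81 (standard error 0.11) for Bahd1. From the highest down, Tnrc18 was placed 2, Bahcc1 3 and Bahd1 332 of 13214 genes tested. The genes on either side of the pair in that order were Atg7, at 3.19, which encodes an enzyme of autophagy, and Bcor, at 2.84, a corepressor of a variant Polycomb complex. The median over all genes tested was -0.01, and 95% of genes were below 0.67. Fitted within genotypes, it came to 3.25 in WT and 2.83 in KO for Tnrc18, 3.09 and 2.98 for Bahcc1, and 0.90 and 0.71 for Bahd1. With genes of very low count admitted to the fit, Tnrc18 and Bahcc1 were placed 51 and 52 over both genotypes, and Bahd1 1895, while the ratios of Tnrc18 and Bahcc1 stayed between 2.99 and 3.07 in all alternatives that kept every library. Bahd1 was placed 705 without WT pool 1, with a ratio of 0.70, and 536 without KO pool 3, with 0.76. Tnrc18 was placed 5 without WT pool 2, with a ratio of 2.84, and Bahcc1 6 without KO pool 3, with 3.11.

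**Figure D2:**
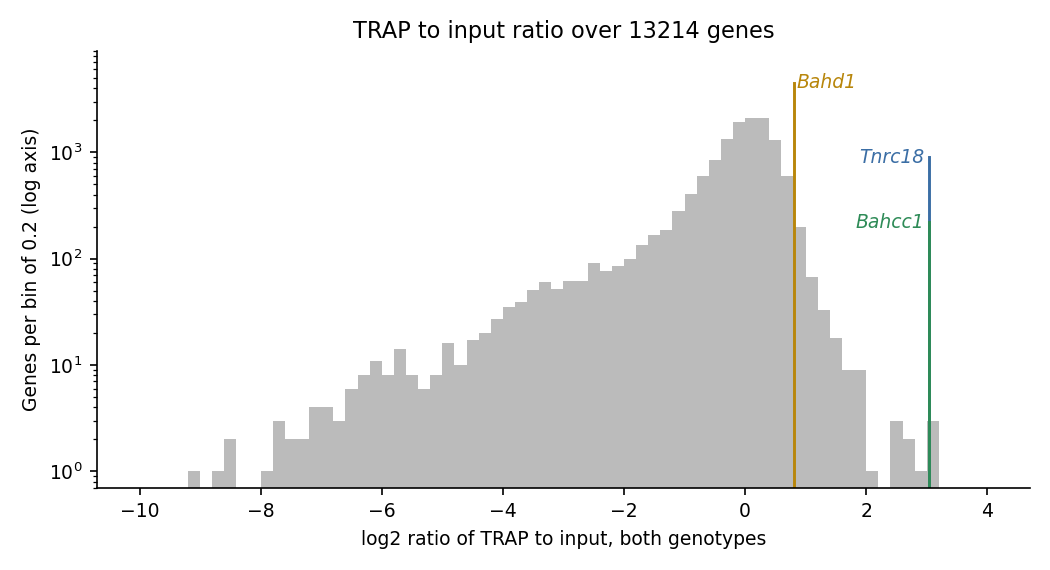
Number of genes (y axis, log axis) by log2 ratio of TRAP to input over both genotypes (x axis, bins of 0.2) for 13214 genes, with the positions of Tnrc18, Bahcc1 and Bahd1 as vertical lines whose heights carry no value. Tnrc18 and Bahcc1 stand at 3.04, where few genes are, and Bahd1 at 0.81, on the shoulder of the main peak around 0.

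The summed markers of glia and of GABA neurons were lower in every TRAP library than in every input library, while those of endothelium overlapped. The part of this difference in the ratios was not tested. The remaining genes among the 10 with the highest ratio were Gse1 at 2.80, a protein found with histone deacetylase complexes, Gm16379 at 2.73, a pseudogene with at most 19 counts in any TRAP library, Kalrn at 2.57, which encodes kalirin, Lrguk at 2.49, Grxcr2 at 2.46 and Prr12 at 2.01. As means over the 12 libraries, Kalrn was the most abundant of the 10 at 2425 CPM, followed by Tnrc18 at 626 CPM and Prr12 at 453 CPM, and Bahcc1 was at 215 CPM.

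The ratios were also set beside those of genes with exons of like length and base composition. Across the 12460 protein-coding genes tested, which share the same libraries and are not independent, the ratio had a Spearman correlation of -0.26 with exon length, 0.21 with exon GC content and 0.36 with mean CPM. Tnrc18 and Bahcc1 are in the top 20% for both length and GC. The 221 genes in that class had a median log2 ratio of -0.08, with 90% of them below 0.46. Bahd1, in the next 20% for length and the top 20% for GC, sits in a class of 379 genes with a median of 0.07 and 90% below 0.54.

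Per kilobase of exon, the order of the genes differed between the fractions. In input, Tnrc18 was at 18.6 ± 0.85 CPM per kb in WT and 20.6 ± 3.30 in KO, Bahd1 at 9.52 ± 1.39 and 10.2 ± 1.05, and Bahcc1 at 3.93 ± 0.36 and 4.48 ± 0.19 (SD, n = 3 each). Bahcc1 was thus the lowest of the 3 in input, with no overlap with Bahd1 in either genotype. In TRAP, Tnrc18 was at 175 ± 75.04 CPM per kb in WT and 148 ± 35.5 in KO, Bahcc1 at 33.3 ± 10.8 and 35.6 ± 7.27, and Bahd1 at 17.7 ± 2.71 and 16.8 ± 1.05. Bahcc1 stood above Bahd1 in every TRAP library, where its level per kb was 1.28 to 2.62 times that of Bahd1 within a library, as against 0.347 to 0.515 times in input. Tnrc18 kept a similar distance from Bahcc1 in both fractions, at 3.98 to 6.36 times its level per kb in TRAP and 4.00 to 5.53 times in input. These levels are set by the annotated exons, and those of Tnrc18 may be incomplete, as described above.

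Among the 11 mouse genes with a BAH domain that were listed, Tnrc18 had the highest level per kb in TRAP in both genotypes, above Rere, a nuclear receptor corepressor, at 42.0 ± 4.44 CPM per kb in WT and 38.7 ± 1.97 in KO. The libraries of these genes did not overlap. Bahcc1 was in place 3 and overlapped with Rere above it and with Mta1 below it, a subunit of the NuRD deacetylase complex at 30.7 ± 5.49 in WT and 32.4 ± 4.09 in KO. In input, Rere was first with 42.6 ± 1.16 in WT and 41.8 ± 4.84 in KO, and Bahcc1 was in place 10, above only Orc1, a subunit of the origin recognition complex with at most 9 counts in any library. Tnrc18 was in place 6 in WT input, where it overlapped with Dnmt1, and in place 4 in KO input, where it overlapped with Mta3.

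Outside the 3 genes, the BAH list was spread around 0 between TRAP and input. Of the other 8 genes, Orc1 was too low to be tested, and of the 7 tested, Dnmt1, the maintenance DNA methyltransferase, was higher in TRAP with a log2 ratio of 0.29 (standard error 0.09, adjusted p = 0.0148 in edgeR's quasi-likelihood test). Ash1l, a histone H3 methyltransferase, at -0.27 (standard error 0.07, adjusted p = 0.00238) and Mta3 at -0.24 (standard error 0.08, adjusted p = 0.0189) were lower. Mta2, Pbrm1, a subunit of a SWI/SNF remodeler, Mta1 and Rere were at 0.14, 0.13, 0.06 and -0.07 and did not pass the test. Over all genes tested, 19.6% were called higher and 22.5% lower in TRAP. The median of the 7 was 0.06, beside -0.01 over all genes tested.

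The other chromatin genes, listed because their complexes set, remove or read the same marks, all had lower ratios than Tnrc18 and Bahcc1, and Ring1 and Cbx2 had higher ratios than Bahd1. Of 12 PRC2 subunits and H3K27 demethylases tested, 4 were higher and 1 lower in TRAP, with a median log2 ratio of 0.20. Kdm6b, a demethylase of H3K27, at 0.62 and Rbbp7, a histone chaperone of PRC2, at 0.44 were the highest. Ezh2, a catalytic subunit of PRC2, was at -2.28 (standard error 0.37, adjusted p = 1.4e-05) and Kdm6a at -0.37 (adjusted p = 0.0821, not past the threshold). Of 20 PRC1 genes, 5 were higher and 5 lower, with a median of 0.00, beside 19.6% higher and 22.5% lower over all genes tested. Ring1, a ubiquitin ligase of the complex, rose to 0.91 (adjusted p = 0.000119), Cbx2 had a larger ratio of 1.09 that did not pass (adjusted p = 0.124), and Pcgf5 and Phc1 were the lowest at -1.04 and -1.03.

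Of 20 gene rows for H3K9 methylation and HP1, 3 were higher and 5 lower, with a median of 0.05. Over all genes tested, 19.6% were called higher and 22.5% lower. Trim28, a corepressor that recruits the methyltransferase SETDB1, was the highest at 0.73, followed by Suv39h2 at 0.63 (adjusted p = 0.0959, not past the threshold). Cdyl, a chromodomain corepressor, was the lowest at -1.497, followed by Atf7ip, a partner of SETDB1, which has 2 gene rows at -0.80 and -0.75. Of 22 genes of histone deacetylase corepressor complexes, 6 were higher and 4 lower, with a median of 0.10. Sin3b and Rcor2, scaffold proteins of these complexes, were the highest, both at 0.49, and Mier1 and Tbl1xr1 the lowest, at -0.76 and -0.51. The highest ratio in these 4 lists was thus 1.09, well under the 3.04 of Tnrc18 and Bahcc1. This gap follows in part from how these genes were chosen.

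**Figure D3:**
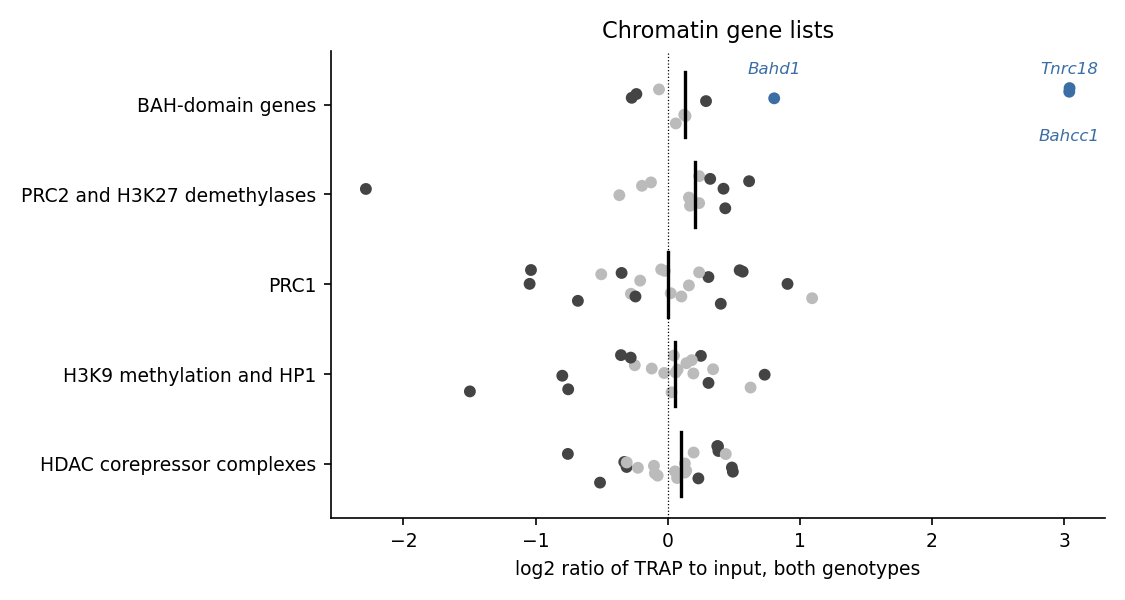
Log2 ratio of TRAP to input over both genotypes (x axis) for the genes tested in each of 5 chromatin gene lists (rows), with dark points for genes with an adjusted p under 0.05, grey points for the others, blue points for Tnrc18, Bahcc1 and Bahd1, and a black bar for the list median. The medians lie between 0.00 and 0.20, while Tnrc18 and Bahcc1 lie at 3.04 and Ezh2 at -2.28.

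The genes most like each of the 3 in pattern were found by the correlation of log2(CPM + 0.5). Over the 12 libraries, Tnrc18 and Bahcc1 had a Pearson r of 0.990, which restates the step between TRAP and input by which both were chosen. By this measure, Tnrc18 was most like Prr12, Gse1 and Gtf3c1 (r = 0.993 each), Kalrn (0.991) and Bahcc1 (0.990), and Bahcc1 was most like Tnrc18, Prr12 (0.987), Gse1 (0.986), Rbfox3 (0.984) and Prpf8 (0.981). Bahd1 was most like Polr2a, the largest subunit of RNA polymerase II (0.986), Polr3a (0.978), Caprin1 (0.975), Xrn2 (0.974) and Fbxo21 (0.972). Prr12 and Gse1 were thus near both paralogs, and Bahd1 had none of its 5 nearest genes in common with them.

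With the means of the 4 groups taken away, so that only differences between pools of a group remain, Tnrc18 and Bahcc1 still had an r of 0.805 over the 12 libraries, which placed Bahcc1 at 55 of 13213 genes in likeness to Tnrc18, and Tnrc18 at 85 in likeness to Bahcc1. In the TRAP libraries r was 0.898 over 6 libraries, and in the 6 input libraries it was -0.32. The input deviations of Bahcc1 ran only from -0.15 to 0.09, so the r in input cannot decide whether a relation is absent there. WT TRAP 3 was lowest in both genes, at -0.60 and -0.61 on the log2 scale from its group mean, and WT TRAP 2 was highest in both within its group, at 0.64 and 0.34. KO TRAP 4 was highest in both within its group, at 0.37 and 0.31, and KO TRAP 3 lowest, at -0.27 and -0.26. Some of the other genes had this order too. The TRAP to input ratios of Gse1 and Prr12 also had WT pool 3 lowest and WT pool 2 highest, at 2.12 and 3.42 for Gse1 and 1.399 and 2.53 for Prr12 on the log2 scale, and KO pool 3 lowest and KO pool 4 highest, at 2.44 and 2.94 and at 1.68 and 2.46. Bcor had the same order in WT and KO pool 2 as the lowest in KO. Kalrn and Atg7 shared only the highest pools, WT 2 and KO 4, and were lowest in WT pool 1, at 2.16 and 3.09, and in KO pool 2, at 2.23 and 2.51. Bahd1 had an r of -0.22 with Tnrc18 and 0.10 with Bahcc1 by this measure. The nearest genes by deviations were Prr12 (0.949), Gtf3c1 (0.946), Tmeff1 (0.929), Kdm6b (0.918) and Leprel2 (0.917) for Tnrc18. For Bahcc1 they were Mzt1 (0.955), Tet2 (0.954), Lrrc8c (0.931), Gcfc1 (0.926) and Lrfn3 (0.900). For Bahd1 they were Polr2a (0.978), 1 of the 2 rows of Atf7ip (0.968), Sgip1 (0.959), Arfgef2 (0.946) and Cpm (0.945). The points share library depth and the scaling, and with 13213 genes compared over 12 libraries the highest r of any gene is large.

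**Figure D4:**
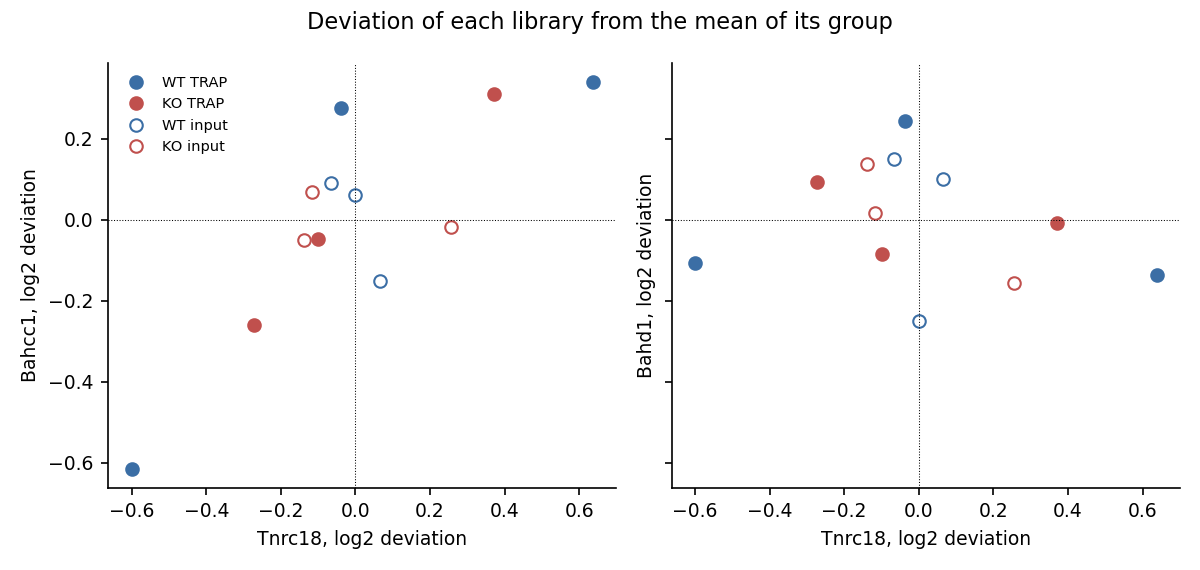
Log2 deviation of Bahcc1 (left) and Bahd1 (right) from the mean of its group (y axis) against that of Tnrc18 (x axis) in each of 12 libraries, with filled points for TRAP, open points for input, blue for WT and red for KO. In TRAP, Bahcc1 rises with Tnrc18 from WT TRAP 3 at -0.61 to WT TRAP 2 at 0.34, and the TRAP points of Bahd1 lie between -0.14 and 0.24.

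Whether loss of FosB changes these genes was asked separately in TRAP and in input. Fosb itself was not called, at 0.590-fold of WT in KO TRAP (log2 difference -0.76, adjusted p = 0.337 in edgeR's quasi-likelihood test) and 0.625-fold in KO input (log2 difference -0.68, adjusted p = 0.9996). Its unadjusted p in the same test was 0.00126 in TRAP and 0.00557 in input. The 95% confidence intervals of Fosb, -1.19 to -0.33 in TRAP and -1.13 to -0.225 in input, did not hold 0. In TRAP, KO minus WT on the log2 scale was -0.25 for Tnrc18 (standard error 0.39, 95% confidence interval -1.31 to 0.82, adjusted p = 0.962 in edgeR's quasi-likelihood test). For Bahcc1 it was 0.10 (standard error 0.32, interval -0.76 to 0.96, adjusted p = 0.986), and for Bahd1 -0.09 (standard error 0.14, interval -0.37 to 0.20, adjusted p = 0.96). All 3 genes had overlapping WT and KO libraries, and 11.9% of the genes tested had groups that did not overlap. By edgeR, 0 of 3 were called, beside 0.0682% of the 11727 genes tested, none had an unadjusted p under 0.05, and DESeq2 called none of them. The intervals for Tnrc18 and Bahcc1 were wide, and that of Bahd1 was narrower.

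The sign of these differences depended on single pools. Without WT pool 2, the highest of its group, the difference for Tnrc18 in TRAP was 0.14, and over all pools left out in turn it ran from -0.50 to 0.14. For Bahcc1 it was -0.15 without WT pool 3 and -0.07 without KO pool 4, and ran up to 0.26, without WT pool 2. For Bahd1 it ran from -0.15 to 0.05, the latter without WT pool 1. None of these values was called.

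In input, KO minus WT was 0.15 for Tnrc18 (standard error 0.13, interval -0.12 to 0.42), 0.19 for Bahcc1 (standard error 0.16, interval -0.13 to 0.52) and 0.10 for Bahd1 (standard error 0.17, interval -0.25 to 0.45), each with an adjusted p of 0.9996 in edgeR's quasi-likelihood test. Bahcc1 was the only one whose groups did not overlap, with 39.1 to 46.4 CPM in WT and 48.1 to 52.3 CPM in KO, a separation that 8.38% of the 12816 genes tested showed. By edgeR, 0 of 3 genes were called in input, beside 0.0312% of all genes tested, none had an unadjusted p under 0.05, and DESeq2 called none. The value of Tnrc18 in input was 0.01 without KO pool 3, the input library with its highest level, and that of Bahd1 was -0.01 without WT pool 1 and -0.09 with the pool number as a block.

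The difference of the TRAP to input ratios between genotypes, KO minus WT, was -0.39 for Tnrc18 (standard error 0.43, interval -1.38 to 0.59), -0.10 for Bahcc1 (standard error 0.33, interval -0.82 to 0.63) and -0.18 for Bahd1 (standard error 0.21, interval -0.62 to 0.26), each with an adjusted p of 0.9999 in edgeR's quasi-likelihood test. Again 0 of 3 were called by edgeR or DESeq2, beside 0.00757% of all 13214 genes tested, and none had an unadjusted p under 0.05. The ratio of Tnrc18 was 2.48 to 3.85 on the log2 scale in WT pools and 2.30 to 3.34 in KO pools, which overlap widely. When 1 pool was left out, the difference for Tnrc18 was -0.68 without WT pool 3 or KO pool 4 and 0.02 without WT pool 2. For Bahcc1 it ran from -0.30, without KO pool 4, to 0.02, without WT pool 2, and was 0.01 without KO pool 3. For Bahd1 it ran from -0.32, without WT pool 2, to 0.03, without WT pool 1.

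**Figure D5:**
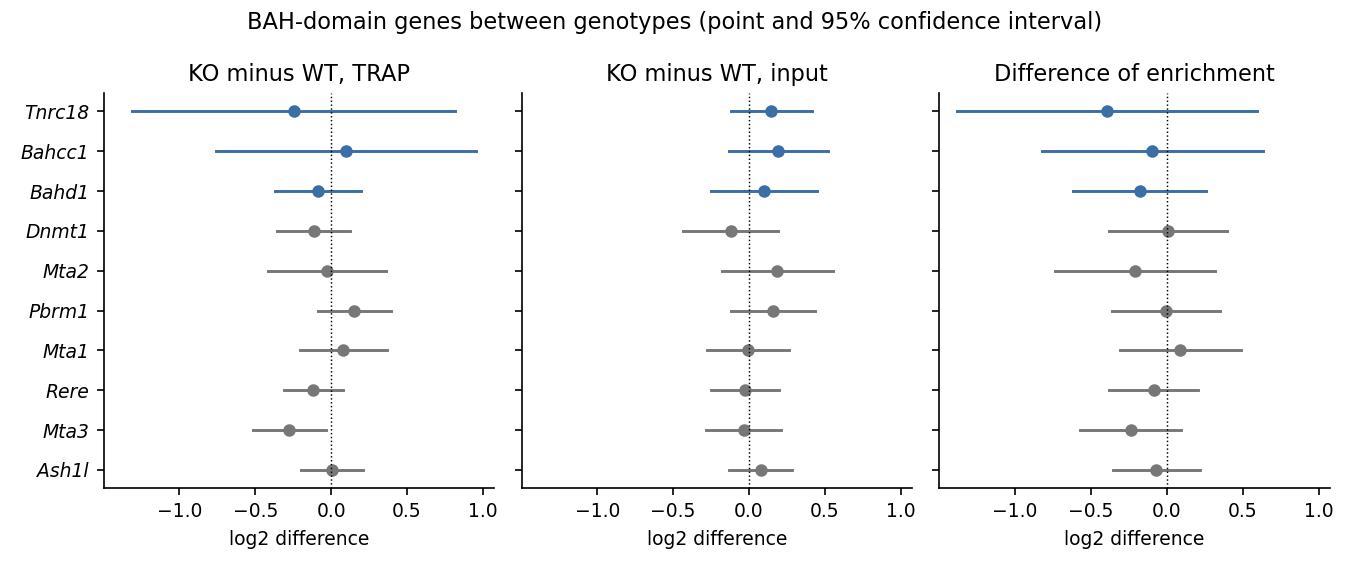
Log2 difference KO minus WT in TRAP, KO minus WT in input, and the difference of the TRAP to input ratios (x axes, KO minus WT) for the 10 BAH-domain genes tested, as points with 95% confidence intervals, with Tnrc18, Bahcc1 and Bahd1 in blue. The intervals of these 3 genes hold 0 in every panel and are widest for Tnrc18 in TRAP, from -1.31 to 0.82.

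Nor was any other listed chromatin gene called between genotypes. Of the 83 rows of chromatin genes tested in TRAP, edgeR and DESeq2 each called 0, and 5 had an unadjusted p under 0.05, a level that 6.05% of all genes tested reached. Mta3 was the 1 BAH gene among them, with a log2 difference of -0.28 and an unadjusted p of 0.0257. In input, 0 of 83 were called and 1 had an unadjusted p under 0.05 by edgeR, beside 2.89% of all genes tested, and 0 of 83 by DESeq2. For the difference of the ratios, 0 of 84 were called and 3 had an unadjusted p under 0.05 by either tool, beside 2.71% of all genes tested by edgeR.

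FosB and its splice form act as AP-1 factors, so the promoter windows of the 3 genes were searched for the letters of the AP-1 site. The windows are those of RefSeq on GRCm38.p6, from 250 bases before to 50 bases after the start. TGANTCA, read on both strands, was in 0 of 3 windows, while 7.81% of all 32851 windows hold it. The related TGACGTCA, of which no match is also a match of TGANTCA, was in 0 of 3, and 1.79% of all windows hold it. These windows hold 59.3%, 64.7% and 81.0% G and C for Tnrc18, Bahcc1 and Bahd1, and the median window holds 52.7%.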

How the data were processed

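RNA of 12 libraries (SMARTer Stranded Total RNA-Seq kit) was analysed. The authors deposited raw counts per gene for each library, made with TopHat on mm9 and HTSeq on the Gencode vM1 annotation, without normalization. The strand setting of the counting is not given in the sources used here, so reads of Bahcc1 and of the antisense gene Gm11772 that overlaps it, which had at most 3 counts in any library, cannot be told apart. The files hold all 37310 gene identifiers of this annotation, and symbols, positions and exons were taken from it.

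Groups were formed from the labels, and a label without the word input was read as TRAP. Tests were run on the counts with edgeR 4.0.16 in R 4.3.3 (filterByExpr by group, TMM factors, robust quasi-likelihood fit and test) and adjusted by the Benjamini-Hochberg method over all genes tested, with a threshold of 0.05. A standard error is the log2 change divided by the root of the F statistic. CPM were TMM-scaled over the 12 libraries, and ratios within pools used a pseudocount of 0.5 CPM. The 3 genes and the gene lists were chosen with earlier results of these data known, so no p-value was adjusted over a list alone. Genes named are the 3 genes, the BAH list, from each other chromatin list the genes called between genotypes and the 2 highest and 2 lowest TRAP to input ratios, the 10 highest ratios of all genes, the 5 genes most like each of the 3 by each measure, genes within 200 kb, and Fosb, Actb and Actg1.

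Translations were aligned with Biopython 1.88, the BAH segment was searched with tblastn 2.17.0 in chromosomes 2, 5 and 11, and stretches of 75 bases were aligned to mm9 with minimap2 2.31. The alternatives were RLE factors, total counts, 2 other filters on low counts, no mitochondrial genes, a fit that is not robust, DESeq2 1.42.0, a replicate block, a fit of all 12 libraries and leaving out each pool.

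TRAP and input libraries with the same number come from the same pool. Their deviations from the group means had correlations of 0.0582 to 0.106 over genes.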

Additional observations from a re-analysis of the deposited data

How the results depend on the processing

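For the 3 genes, all 240 values under the alternatives kept their side of the threshold, or, for TRAP against input, their direction within 1 SD of the pools. No test of Tnrc18, Bahcc1 or Bahd1 between genotypes reached an adjusted p under 0.90 in any alternative. The replicate block, which joins the TRAP and input library of a pool, gave TRAP to input ratios of 2.99, 3.00 and 0.80 for Tnrc18, Bahcc1 and Bahd1 over both genotypes. Between genotypes the numbers are shared by different mice, with correlations of deviations of -0.07 to 0.00, so they do not pair the samples. With the number alone as a replicate block, KO minus WT in TRAP was -0.39, 0.12 and 0.05, and 20 genes were called in input in place of 4. The block changed no other count by over 1.5 times.

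Counts over all genes moved more, and the cause was not tested. Between KO and WT in TRAP, 8 genes were called, with 41 when any gene with a count was admitted, 18 with DESeq2, and 5 to 20 when 1 pool was left out. In input, 4 were called, with 19 for any gene with a count, 8 with DESeq2, 7 in the fit of all 12 libraries, and 1 to 5 when 1 pool was left out. For the difference of the ratios, 1 gene was called, 0 with a fit that is not robust (371 had an unadjusted p under 0.05, and DESeq2 called 1), and 0 to 1 when 1 pool was left out. For TRAP against input, 3096 genes were called in WT and 3626 in KO, and leaving out 1 pool gave 1289 to 3243 and 1982 to 3181. Admitting any gene with a count moved the median ratio of all genes from -0.01 to -0.17. With 3 pools a group, the difference between genotypes is known for Tnrc18 and Bahcc1 in TRAP only to the width of the intervals given above.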

Other observations

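Tnrc18 and Bahcc1 each lie beside a gene of cytoplasmic actin and a gene of a fascin, an actin-bundling protein. Actb lies 85452 bases from Tnrc18 and Fscn1 142680 bases, and Actg1 lies 53393 bases from Bahcc1 and Fscn2 69237 bases. Actb was higher in TRAP with a log2 ratio of 0.35 (standard error 0.06, adjusted p = 2.63e-05 in edgeR's quasi-likelihood test), Fscn1 with 0.71 (adjusted p = 3.92e-09) and Actg1 with 0.88 (standard error 0.09, adjusted p = 3.21e-08), all well below the ratios of their neighbours. Fscn2 had 21 counts in all 12 libraries together and was not tested.

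Of the 7 annotated genes within 200 kb of Tnrc18, 4 were tested, 2 were higher in TRAP and 0 lower, with a median log2 ratio of 0.16, beside 19.6% higher and 22.5% lower over all genes tested. Of the 27 around Bahcc1, 15 were tested, 4 were higher (Actg1, Ccdc137 at 0.87, Azi1 at 0.77 and Hgs at 0.50) and 1 lower (Aatk at -0.29), with a median of 0.13. Of the 17 around Bahd1, 9 were tested, 2 were higher (Gm1337 and Ccdc32, both at 0.41) and 0 lower, with a median of 0.12. Between KO and WT, edgeR and DESeq2 each called 0 of these neighbours, of which 28 were tested in TRAP and 27 in input. By edgeR, 1 in TRAP and 0 in input had an unadjusted p under 0.05, beside 6.05% and 2.89% of all genes tested.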
